A study of Mus musculus with 2 samples.

Results

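A list of miRNA genes deposited with an experiment on nucleolin, an RNA-binding protein, in activated mouse CD4+ T cells names 5 miRNAs known as conserved and well studied: mmu-miR-29a-3p, mmu-miR-326-5p, mmu-miR-425-5p, mmu-miR-212-5p and mmu-miR-7a-1-3p. The species prefix is left out below. They were picked by name from this list of 101 alignments between a mouse miRNA gene and a mature miRNA, in which each of the 5 has 1 row. The remaining 96 rows name other miRNAs. Being on the list is what chose these miRNAs and is therefore no result. Their conservation between species was not tested, since only mouse sequences were at hand.

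The series holds 2 samples with 1 in each group. One is a nucleolin immunoprecipitate (labelled NCL) and the other is labelled as an input, although the design text speaks of a precipitation with IgG. Both come from the spleen of wild type C57 mice. The design text calls the starting cells naïve CD4+ T cells, and both samples were stimulated with antibodies against CD3 and CD28, so that no resting cells were included. The sources used here do not say how many animals were used or whether they were pooled. RNA was isolated with Trizol, and libraries were prepared with the TruSeq kit for small RNA.

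The list carries no reads and no value for either sample. The depth of both libraries is therefore unknown, no level of a miRNA can be given, and the NCL and input samples cannot be compared for any of the 5. Nor could the cell type be checked by levels. Of 5 miRNAs typical of T cells (miR-150, miR-181a, miR-142a, miR-146a and miR-155) the list named 0, and of 10 typical of erythroid, myeloid, liver, nerve, muscle or endothelial cells it also named 0. The list holds 100 of the 1241 miRNA genes that the search could have matched, so neither count of 0 says anything about the cells. Absence from such a list does not show absence from the RNA.

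As background, a miRNA is cut from a hairpin in a longer transcript, first by Drosha with its partner DGCR8 in the nucleus and then by Dicer in the cytoplasm. The resulting duplex has an arm from each side of the hairpin, called 5p and 3p. Usually an Argonaute protein keeps mostly the main arm, and its seed near the 5′ end pairs with target mRNAs. Nucleolin, most abundant in the nucleolus, is a protein that has been found with the Drosha complex. In T cells the miR-29 family is known to restrain interferon gamma and the Th1 factors T-bet and Eomes. The 3p arm of miR-326 is known from Th17 cells, where it targets Ets1. The miR-212 and miR-132 pair is known from neurons, in which the factor CREB induces it, and from Th17 cells. Work on miR-7 has centred on neurons, on the circular RNA Cdr1as that binds it and on EGFR in tumours.

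The mature sequences named in the list are shown first because every value below rests on them. They are RefSeq sequences on GRCm38.p6, written 5′ to 3′ with the seed (bases 2 to 8) in capitals. All 5 were found there under the listed name.
miR-29a-3p: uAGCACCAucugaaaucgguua
miR-326-5p: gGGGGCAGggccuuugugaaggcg
miR-425-5p: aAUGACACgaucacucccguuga
miR-212-5p: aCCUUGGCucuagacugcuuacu
miR-7a-1-3p: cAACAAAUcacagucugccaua

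The 5 seeds are all different, so that the listed arms belong to 5 separate seed groups. GC content of the listed arms was highest in miR-326-5p, at 70.8%. It was 47.8% in both miR-425-5p and miR-212-5p, and 40.9% in both miR-29a-3p and miR-7a-1-3p. The first base was U in miR-29a-3p, A in miR-425-5p and miR-212-5p, G in miR-326-5p and C in miR-7a-1-3p. A first base of U or A is known to favour loading into Argonaute. Among the 88 other rows whose listed arm could be placed, 37 began with U (42%), 20 with A, 20 with C and 11 with G. Each of the 5 listed sequences occurs at 1 place in the GRCm38 chromosomes, counting exact matches on both strands.

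Each row of the list aligned a query, the reference sequence of a miRNA gene or part of it, to a mature miRNA. For all 5 the query was 60 nt long and was matched with 100% identity over the whole mature miRNA. Both sequences are reference sequences, so this identity does not describe the reads. The genes of the 5 are 85 to 108 nt long, and the query was thus a part of each. Rebuilding the query as the first 60 nt from the lowest genomic coordinate gave the listed bases at the stated positions.

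miR-326-5p had the longest match of the 5, 24 nt with a bit score of 48.1 and an E-value of 3.99e-09. It began at position 20 of the query and ended at 43. Of the 101 rows 1 had a longer match, and 7 others were equally long.

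miR-425-5p and miR-212-5p were each matched over 23 nt, with a bit score of 46.1 and an E-value of 1.58e-08. The match ran from position 13 to 35 for miR-425-5p and from 16 to 38 for miR-212-5p. In 9 rows the match was longer, and each of the pair had 14 rows of equal length.

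miR-29a-3p and miR-7a-1-3p were matched over 22 nt, with a bit score of 44.1 and an E-value of 6.23e-08. The match ran from position 14 to 35 for miR-29a-3p and from 22 to 43 for miR-7a-1-3p. In 24 rows it was longer, and 22 nt is also the median over the 96 other rows.

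These E-values hold nothing beyond the lengths. Rows with the same aligned and query length had the same E-value in all 13 such combinations in the list, and with a query of 60 nt each base more lowered the E-value 3.95-fold. The order of the 5 by E-value is the order of their mature lengths and says nothing of how much of each RNA was bound.

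The subject frame, which gives the orientation of the match, was 1 for miR-326-5p, miR-425-5p and miR-212-5p and -1 for miR-29a-3p and miR-7a-1-3p. It followed the strand of the gene: 3 genes lie on the plus strand and 2 on the minus strand. In the minus-strand rows the subject was read from position 22 back to 1.

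The match of these 5 lay further into the query than in most rows. It began at position 13 to 22, with a median of 16, against 1 to 38 with a median of 6 in the 96 other rows. From 71 rows (for miR-425-5p) to 81 rows (for miR-7a-1-3p) of the 101 began earlier. In the hairpins printed below, the bases outside the arms set where the match begins.

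**Figure D1:**
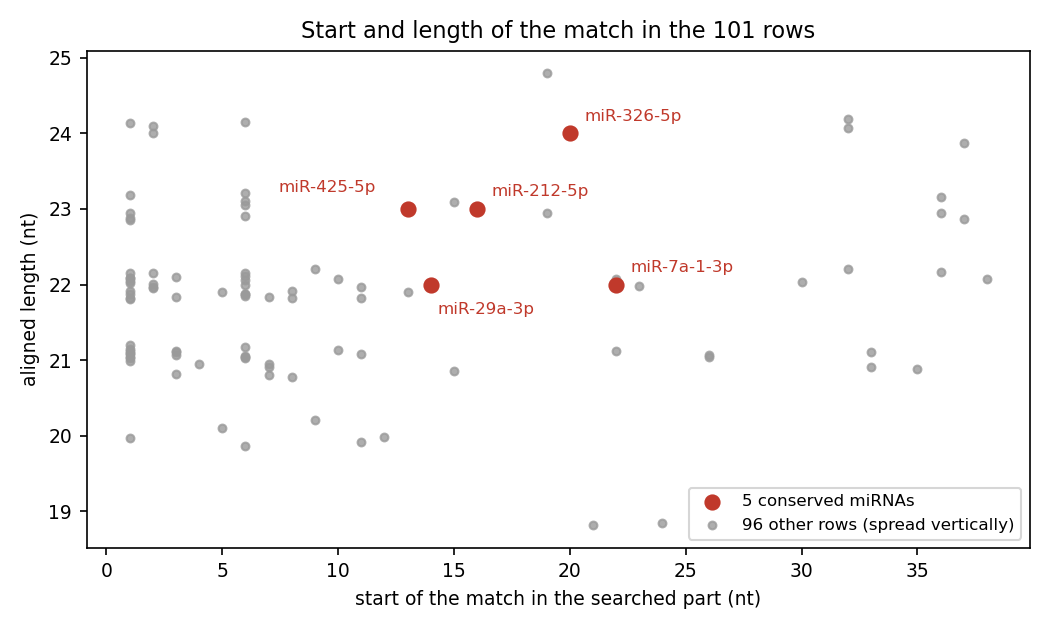
Each point is 1 of the 101 rows, placed by the start of the match in the searched part (horizontal axis, nt) and its aligned length (vertical axis, nt). Red points are the 5 conserved miRNAs, at starts of 13 to 22 and lengths of 22 to 24 nt, and grey points are the 96 other rows, whose median start is 6 (moved slightly up or down so that they can be told apart).

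The arm named in the list is the one biologists usually follow for 2 of the 5. These are miR-29a-3p and miR-425-5p. For the remaining 3 the list names the arm less often followed, since work on these genes has centred on miR-326-3p, miR-212-3p and miR-7a-5p. Which arm is usually followed is background, as the list has no counts of either arm. From here on, main arm means the arm usually followed, whether or not it is the more abundant. By the order of miRBase records, the listed arm was the first recorded of its gene for miR-29a-3p and the second for the other 4. Among other rows whose gene has both arms annotated, the listed arm was the first recorded in 38 of 74.

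The hairpins show where each listed arm sits. They are printed 5′ to 3′ on the strand of the gene, from RefSeq on GRCm38.p6, with the listed arm in capitals.
Mir29a, chr6:31062660-31062747, minus strand: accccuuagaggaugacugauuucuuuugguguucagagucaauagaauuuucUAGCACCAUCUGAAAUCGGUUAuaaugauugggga
Mir326, chr7:99552269-99552363, plus strand: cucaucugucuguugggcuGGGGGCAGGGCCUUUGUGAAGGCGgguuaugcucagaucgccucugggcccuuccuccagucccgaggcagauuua
Mir425, chr9:108568777-108568861, plus strand: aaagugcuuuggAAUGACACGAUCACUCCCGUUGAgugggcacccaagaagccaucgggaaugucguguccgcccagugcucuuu
Mir212, chr11:75173388-75173478, plus strand: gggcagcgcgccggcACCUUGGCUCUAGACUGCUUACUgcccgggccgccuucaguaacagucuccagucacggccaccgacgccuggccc
Mir7-1, chr13:58392779-58392886, minus strand: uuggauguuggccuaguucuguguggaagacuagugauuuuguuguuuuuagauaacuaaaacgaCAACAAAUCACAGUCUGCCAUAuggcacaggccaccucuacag

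The arms that were not listed are shown for comparison, again with the seed in capitals.
miR-29a-5p: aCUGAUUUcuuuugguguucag
miR-326-3p: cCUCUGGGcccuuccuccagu
miR-425-3p: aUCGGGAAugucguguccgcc
miR-212-3p: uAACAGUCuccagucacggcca
miR-7a-5p: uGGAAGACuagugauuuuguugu

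None of these 5 other arms could have been listed from its gene, because too little of it lay in the searched part. For miR-7a-5p 0 of 23 nt lay inside, for miR-326-3p 1 of 21 nt, for miR-212-3p 5 of 22 nt, for miR-425-3p 7 of 21 nt and for miR-29a-5p 9 of 22 nt. The shortest alignment in the whole list is 19 nt. All 10 arms of the 5 genes lie whole within their genes, so a search of the complete genes would have met both arms of each.

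For the plus-strand genes Mir326, Mir425 and Mir212 the search covered the 5′ side of the hairpin with the 5p arm. For the minus-strand genes Mir29a and Mir7-1 it covered the 3′ side with the 3p arm. Had the 60 nt been counted from the 5′ end of each gene, the 5p arm would have been the longest match in all 5, against 3 of 5 in the list. The main arm miR-29a-3p would then have had 7 nt inside, and the main arm miR-7a-5p all 23 nt. Which arm is named is thus not a measure of which arm nucleolin held.

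**Figure D2:**
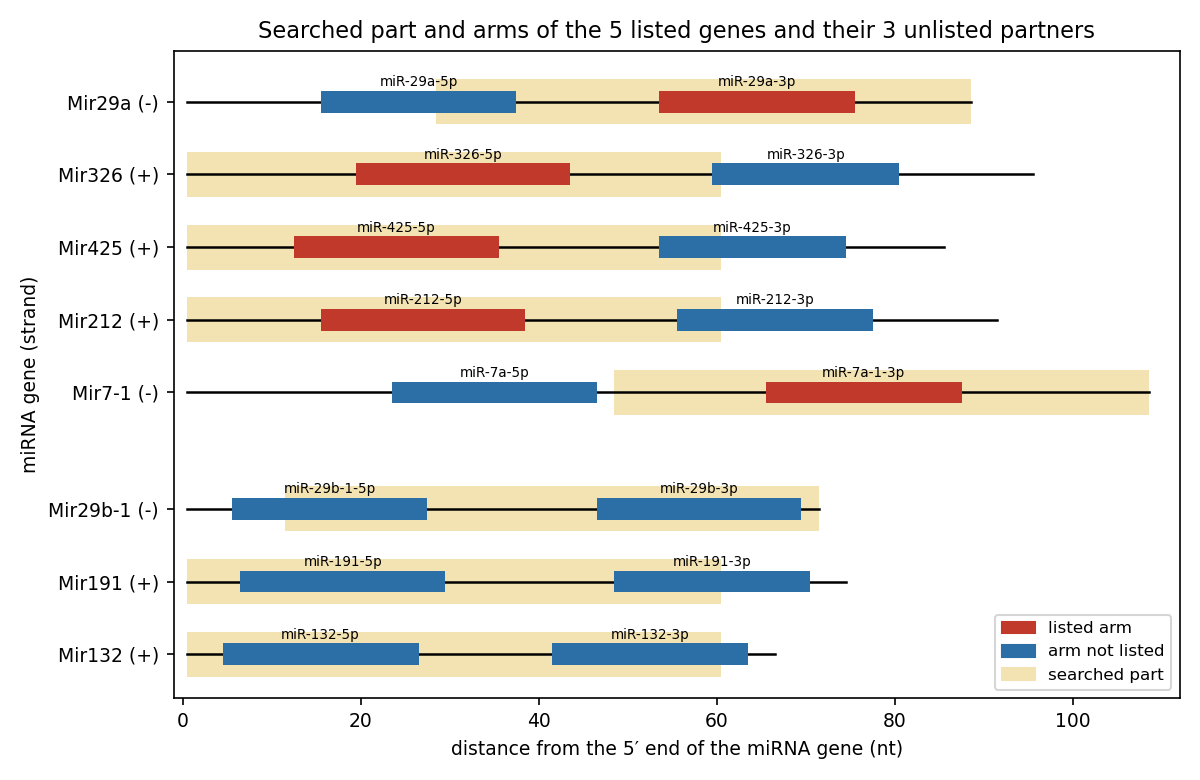
Each row is a miRNA gene drawn from its 5′ end (horizontal axis, distance in nt), with the 5 listed genes above their 3 unlisted partners. Pale boxes mark the searched 60 nt, red bars the listed arm and blue bars arms that were not listed; every red bar lies whole inside a pale box, while the other arms of the 5 listed genes have at most 9 nt inside.

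**Figure D3:**
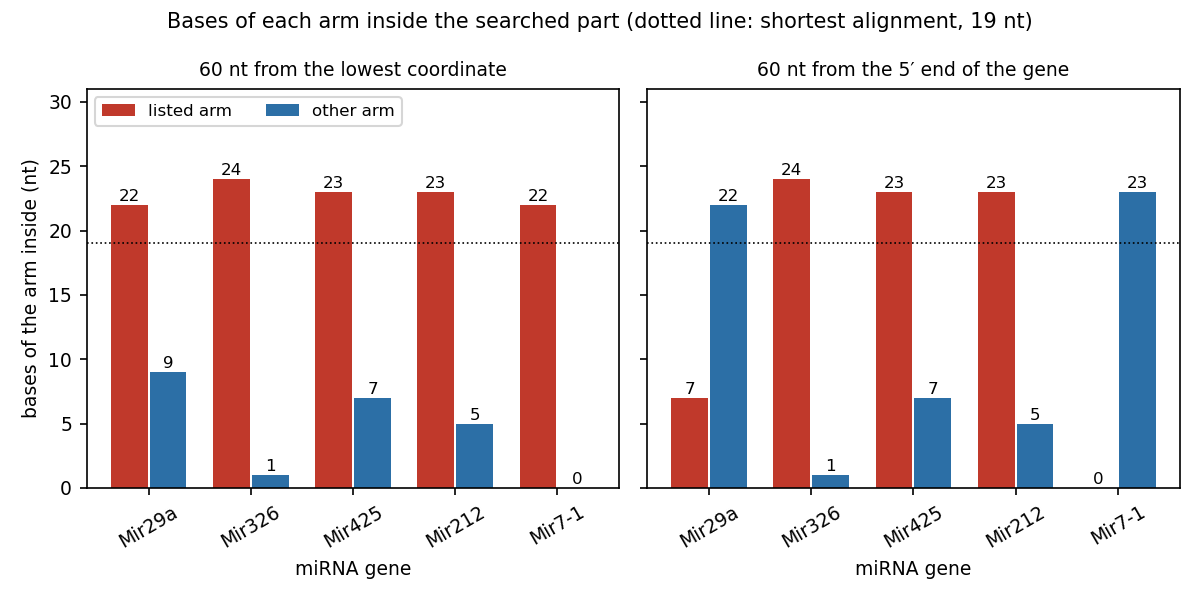
Bars give the bases of each arm (vertical axis, nt) inside the 60 nt counted from the lowest coordinate (left panel) or from the 5′ end of the gene (right panel), for the listed arm (red) and the other arm (blue) of each of the 5 genes. In the left panel only red bars pass 19 nt, the shortest alignment in the list, and in the right panel the 2 minus-strand genes change arms.

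Of the 5 genes 3 have another miRNA gene within 10 kb on the same strand, and 0 of these 3 partners were listed. Of all 1241 miRNA genes that the search could have matched 100 were listed, so 0 of 3 is no result about the partners. Mir29b-1 lies 275 nt from Mir29a and is known to be transcribed with it. Mir191 lies 384 nt from Mir425, and Mir132 lies 203 nt from Mir212. Mir326 and Mir7-1 have no partner within that distance. A neighbour on its own strand within 10 kb was found for 3 of 5 of these genes, for 18 of the 96 other rows (18.8%) and for 369 of 1141 unlisted genes that the search could have matched (32.3%).

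The search could have found each partner. These arms of the partners lay whole in the searched part, as shown on the gene maps.
miR-29b-3p: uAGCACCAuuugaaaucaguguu
miR-191-5p: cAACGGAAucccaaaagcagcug
miR-132-5p: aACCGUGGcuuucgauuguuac

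miR-29b-3p occurs at 2 places in the genome, since Mir29b-1 and Mir29b-2 both encode it, while miR-191-5p and miR-132-5p occur at 1 each. Of miR-132-3p, the main arm of its gene, 19 of 22 nt lay in the searched part. How transcripts were chosen for the list is not stated, so the listing of 1 gene of a cluster without its partner cannot be read as a difference in binding.

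Relatives that share a seed with a listed arm, or with its other arm, were likewise absent from the list. There were 9 such miRNAs at 10 loci, and 0 were listed. With 100 of all 1241 genes that could have been matched on the list, this 0 is no result about the relatives. All 10 loci held a match that the search could have found, but the relative itself lay in the searched part over at least 19 nt at 7 of them. The family of miR-29a-3p has the same seed, and miR-29c-3p differs from miR-29a-3p by 1 base.
miR-29c-3p: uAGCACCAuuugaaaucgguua
miR-132-3p: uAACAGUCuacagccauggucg
miR-7b-5p: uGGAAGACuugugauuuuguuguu

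Counted from 1 at the 5′ end of the first-named miRNA, miR-29a-3p against miR-29c-3p differs by C10U. Against miR-29b-3p it differs by C10U, G18A, U21G and A22U. Mir29c and Mir29b-2 lie on chromosome 1 on the plus strand, where the searched part held 7 nt of miR-29c-3p and 9 nt of miR-29b-3p. Only at Mir29b-1 could a relative of miR-29a-3p itself have been named.

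For miR-212 the listed arm has no seed relative among annotated mouse miRNAs, whereas miR-212-3p shares its seed with miR-132-3p. They differ by C10A, U14C, C17U, C20U and A22G. For miR-7 the listed arm also has no relative, while miR-7a-5p shares its seed with miR-7b-5p, from which it differs by A10U over the shared 23 nt. miR-7a-5p is encoded by Mir7-2 on chromosome 7 as well, where all 23 nt lay in the searched part, and Mir7-2 was not listed either. The query of the miR-7a-1-3p row comes from the Mir7-1 gene, which fixes the locus whichever arm is named. By sequence, miR-7a-1-3p occurs at 1 place in the genome and miR-7a-5p at 2.

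The seed of miR-326-5p is shared with miR-486a-3p, miR-486b-3p and miR-6954-5p. That of miR-326-3p is shared with miR-330-5p, and that of miR-425-5p with miR-489-3p. Outside the seed these are unlike the arms they share it with, and 9 to 12 bases differ over 20 to 23 nt. miR-29a-5p, miR-425-3p, miR-212-5p and miR-7a-1-3p share their seeds with no other annotated mouse miRNA.

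The 5 genes lie on 5 chromosomes. On GRCm38 the listed miR-29a-3p is at chr6:31062673-31062694 on the minus strand and miR-326-5p at chr7:99552288-99552311 on the plus strand. miR-425-5p is at chr9:108568789-108568811 and miR-212-5p at chr11:75173403-75173425, both on the plus strand. miR-7a-1-3p is at chr13:58392800-58392821 on the minus strand. In GENCODE M21, 4 of the 5 genes lie within another gene on their own strand, and Mir29a lies in none.

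Mir326 is intronic in Arrb1, the gene of beta-arrestin 1, a regulator of receptors coupled to G proteins. The intron is 42381 nt long, and Mir326 is 12389 nt from the exon before it and 29897 nt from the exon after it. Mir7-1 lies near the middle of an intron of 719 nt of Hnrnpk, an RNA-binding protein, with 309 nt before and 302 nt after it. The position is intronic in 5 transcripts of Arrb1 and 12 of Hnrnpk and exonic in 0 of either.

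Mir212 lies in an intron of 1380 nt of the noncoding gene 1700016P03Rik, 790 nt from the exon before it and 499 nt from the one after it, and Mir132 lies in the same intron. Mir425 lies in an exon of the lincRNA 4833445I07Rik. Its host depends on the annotation. RefSeq instead places it within Dalrd3, which encodes a protein with an anticodon-binding domain. There it overlaps exons of 8 transcripts, untranslated exons of 4 coding transcripts and exons of 4 noncoding ones, and no coding sequence. For Mir212 RefSeq gives no host on its strand, and for Mir29a none in either annotation. Counts of protein-coding hosts among the 5 are therefore 2 by GENCODE and 3 by RefSeq.

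Most of the list lies at exons or splice sites, but most of these 5 do not. A gene was counted there when over 3 nt of it overlapped an exon of its host, or when an end of it lay within 3 nt of a splice site. This held for 1 of the 5, Mir425, against 83 of the 96 other rows (86.5%). Among 1141 unlisted genes that could have been matched it held for 314 (27.5%). A protein-coding host on the same strand was found for 2 of the 5, 88 of the 96 other rows (91.7%) and 594 of the 1141 unlisted genes (52.1%). No test was made of these counts, since the 5 were named with the list in view. Many of the 96 other rows belong to the numbered series of miRNAs around miR-6954-5p and miR-7089-5p. All listed genes of this series were counted at exons or splice sites, and most are short with an early match. The other rows were not split by this series. How far it sets the contrasts in site, gene length and start of the match was not tested.

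The hairpins of the 5 were longer than most on the list. Gene length was 88 nt for Mir29a, 95 nt for Mir326, 85 nt for Mir425, 91 nt for Mir212 and 108 nt for Mir7-1. The median was 91 nt, against 71.5 nt over the 96 other rows (56 to 137 nt) and 83 nt over the 1141 unlisted genes. Of the other rows 25 have a gene of at least 85 nt (26%), and of the unlisted genes 516 do (45.2%). The loop side between the arms measured 16 nt in Mir29a and Mir326, 17 nt in Mir212, 18 nt in Mir425 and 19 nt in Mir7-1.

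GC content of the 5 genes spread widely, from 38.6% in Mir29a and 41.7% in Mir7-1 to 54.1% in Mir425, 60% in Mir326 and 69.2% in Mir212. The median of 54.1% lay between that of the other rows, 57.5%, and that of the unlisted genes, 50%. The group is thus mixed in base composition, with AU-rich and GC-rich members.

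Folding of the reference hairpins with ViennaRNA at 37 °C predicted a stem in each. The minimum free energy was -50.8 kcal/mol for Mir326, -46.8 for Mir7-1, -41.5 for Mir212, -34.1 for Mir29a and -31.7 for Mir425. Per nt it ranged from -0.535 kcal/mol in Mir326 to -0.373 in Mir425, with a median of -0.433 against -0.395 in the other rows and -0.399 in the unlisted genes. All 5 lay within the range of the other rows, -0.717 to -0.245.

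In these predicted folds the listed arm was mostly paired with the other arm. This held for 19 of 22 bases in miR-7a-1-3p, 17 of 22 in miR-29a-3p, 16 of 23 in miR-212-5p, 15 of 24 in miR-326-5p and 14 of 23 in miR-425-5p. A predicted fold is not a measured structure.

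**Figure D4:**
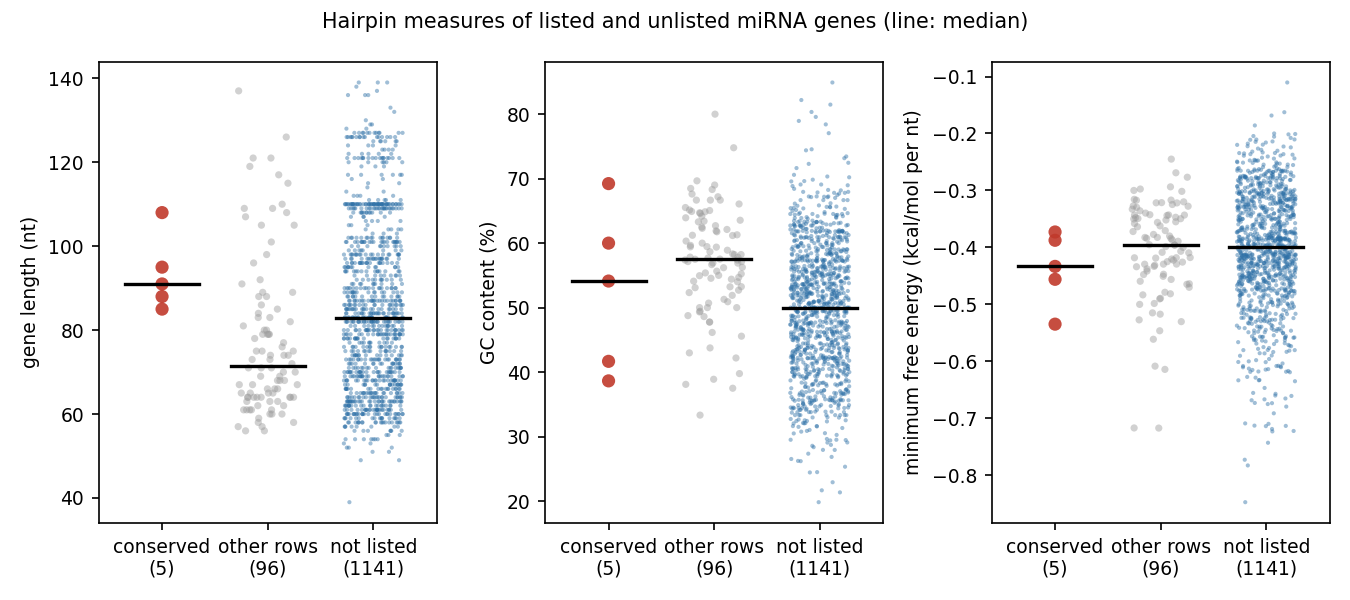
Panels show gene length (nt), GC content (%) and predicted minimum free energy per nt (kcal/mol) for the 5 conserved miRNA genes (red), the genes of the 96 other rows (grey) and 1141 unlisted genes that the search could have matched (blue), 1 point per gene with the median as a line. The conserved genes have a median length of 91 nt against 71.5 nt in the other rows, and their GC content spans 38.6% to 69.2%.

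Nucleolin is known to bind a short element in the loop of a stem, the nucleolin recognition element, and also RNA or DNA with runs of G that can form G-quadruplexes. The hairpins were searched on the strand of the gene for the letters of that element, UCCCGA, also with G in place of its first letter, its last letter or both. This search was chosen after the list had been seen. Mir326 holds UCCCGA at bases 80 to 85 of the hairpin, which overlaps the last base of miR-326-3p and lies outside the searched part. Mir212 holds GCCCGG at bases 39 to 44, next to the end of miR-212-5p and on the loop side. In the predicted folds 2 of the 6 bases were unpaired in Mir326 and 3 of the 6 in Mir212.

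On that strand 2 of the 5 hairpins thus hold the letters, against 0 of 15 other rows with genes of 85 to 108 nt and 6 of 323 unlisted genes of that length (1.9%). Without a limit on length it was 3 of 96 other rows (3.1%) and 53 of 1141 unlisted genes (4.6%). On the opposite strand the letters occur in Mir425 and again in Mir212, so 2 of 5 there too, against 1 of 15 other rows (6.7%) and 12 of 323 unlisted genes (3.7%) of that length. Without a limit on length it was 6 of 96 other rows (6.2%) and 41 of 1141 unlisted genes (3.6%). In Mir212 the opposite-strand match, at bases 41 to 46, overlaps the one at bases 39 to 44. Both lie in a stretch that reads the same on either strand, so they are not separate occurrences. A match of 6 letters is a description of the reference sequence and not a binding site.

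Of the 5 hairpins, Mir326 has the most runs of G, with 5 runs of at least 3 G, the longest of 5 at the start of miR-326-5p. Mir425 and Mir212 have 2 such runs each, Mir29a has 1 and Mir7-1 has 0. At least 4 such runs were found in 1 of the 5 (20%), against 4 of the 15 other rows of like length (26.7%) and 41 of 323 unlisted genes (12.7%). Without a limit on length it was 10 of 96 other rows (10.4%) and 125 of 1141 unlisted genes (11%).

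For each of the 5, the most similar of the 96 other rows was sought by the same aligned length and orientation and the nearest start. The 5 themselves were left out as candidates, so that the nearest row is always another miRNA by design. For miR-29a-3p this was miR-3618-3p, which starts 1 nt earlier. For both miR-425-5p and miR-212-5p it was a row of miR-669k-5p from Gm22072, which starts at position 15. The nearest to miR-326-5p was miR-7089-5p, with a start 14 nt away, and to miR-7a-1-3p it was miR-6418-3p, 8 nt away. These nearest rows were taken from 4 candidate rows for miR-326-5p, 6 for miR-425-5p and miR-212-5p and 21 for miR-29a-3p and miR-7a-1-3p. Had the 5 been included, miR-29a-3p, which starts at position 14, would have tied with miR-6418-3p, at 30, as nearest to miR-7a-1-3p, at 22.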

How the data were processed

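Per the labels' protocols, activated mouse CD4+ T cells gave 2 small RNA libraries, 1 nucleolin immunoprecipitate and 1 input. The values used are in 1 deposited BLAST table of 101 rows. Identity is deposited in percent by the authors. Score and bit score are deposited as their alignment program gave them. The columns belong to no single sample. The sources used here name no aligner, no settings and no rule for the choice of transcripts. The genome build is mm9 per the submitters' processing notes, while the design text has mm10. Positions come from a match of transcript identifiers to GENCODE M21 and RefSeq GRCm38.p6, which paired 101 of 101 rows.

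Queries were rebuilt as the first 60 nt from the lowest coordinate, and in 93 of 93 rows with a placed RefSeq arm the bases equalled the listed miRNA. An unlisted gene could have been matched when this part held 19 nt or more of any mature miRNA in RefSeq (1141 genes). These include sets of predicted genes with the same length, GC content and minimum free energy, and each gene was counted. The same rule held for 100 of the 101 listed rows, so it can miss a gene that the search did match. Named were all 5 miRNAs, neighbours within 10 kb, miRNAs with a shared seed, host genes and the nearest rows. Members and lists were chosen with earlier results of these data known. Hairpins were folded with ViennaRNA 2.7.2, and the placement of arms was tested on simulated data. No test between groups was made.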

Additional observations from a re-analysis of the deposited data

How the results depend on the processing

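All 5 have alignments of at least 22 nt. Matching by name without the arm also gave 5, which the choice by name fixes, and the limit at the median E-value repeats the limit on length, so neither tests anything. Searched over the whole gene, 5 of 5 would have both arms in reach, against 0 in the 60 nt used. With the 60 nt counted from the 5′ end, 5 would be named by the 5p arm, against 3. Partners listed were 0 within 1 kb, within 50 kb (3 partners each) and on either strand (4 partners). Seed relatives listed were 0 with bases 2 to 7 (12 miRNAs) and with the listed arm alone (6 miRNAs). The list holds 100 of the 1241 genes that could have been matched, so these counts of 0 for partners and relatives test nothing. The count from the 5′ end, RefSeq hosts and the opposite strand for the motif were chosen after seeing the data. No paired analysis was possible because the list holds no values per sample and there is 1 sample in each group. The NCL over input ratio and its other scaling were not run for the same reason. Depth is unknown and limits every statement on absence.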
